A study of Mus musculus with 16 samples.

Results

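The genes described here are 6 genes of the red blood cell, taken by name from the table of counts: the α globin genes Hba-a1 and Hba-a2, the β globin genes Hbb-bs and Hbb-bt, Alas2 and Slc4a1. They are 6 of 49315 genes in the table, and 5 of them passed the filter on low counts and were tested among 17469 genes. Slc4a1, with at most 9 counts in a library, did not. In the hippocampus of Kcna1 knockout mice on a ketogenic diet, 4 of the 6 genes were called lower than in knockout mice on a standard diet, against 0.95% of all tested genes called lower and 1.16% called in either direction. These were Hba-a1, Hbb-bs, Hbb-bt and Alas2, and their levels were 3.92-fold to 5.45-fold lower in the fit. In each of the 4 genes every knockout library on the ketogenic diet lay below all 12 other libraries, as in 0.275% of tested genes. With Xist as a covariate 1 of the 4 calls was left, among 7 over all genes in place of 202, and in the libraries without Y-linked expression 0, among 3. The log2 fold changes of the 4 genes were then -2.37 to -2.03 and -2.08 to -1.77.

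Hemoglobin, the oxygen carrier of blood, is built from α and β globin chains, each of which holds a heme group. Alas2 encodes the erythroid form of the enzyme that starts heme synthesis, and Slc4a1 encodes band 3, the anion exchanger of the red cell membrane. Circulating red cells have lost their nucleus but the youngest of them, the reticulocytes, still carry globin mRNA. RNA from brain tissue therefore contains globin transcripts when vessels still hold blood, and globin transcripts have also been described in some neurons and glia. In bulk tissue fewer cells of a type and less RNA per cell cannot be told apart.

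RNA was sequenced from the hippocampus of 16 mice in 4 groups of 4, which crossed genotype with diet. Wild type and Kcna1 KO mice were each given either the Standard Diet or the Ketogenic Diet, which supplies most energy as fat. The product of Kcna1 is a subunit of a potassium channel of axons, and its loss causes seizures in mice. Age, sex, strain, the length of the diet and whether the animals were perfused are not given in the sources used here, and libraries are named by the animal tag of their column. The tags of the knockout animals on the ketogenic diet run from KC913RR to KC935LL and those of the wild type animals on that diet from KC842L to KC846L, while both genotypes on the standard diet share the range from KC872RL to KC900RLL. What the tags stand for is not in the labels, so tag order and group cannot be told apart in comparisons across these ranges.

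Total counts ranged from 13440230 to 22309504 per library. Kcna1 measured 107 to 130 CPM (counts scaled to library size) in the 8 wild type libraries and 43.4 to 47.2 CPM in 7 of the 8 knockout libraries. The library labelled knockout KC888LL, on the standard diet, stood apart at 82.0 CPM. All 12 listed markers of hippocampal neurons and fields were detected, with a summed level of 4789 to 6247 CPM. Y-linked genes were expressed in 4 libraries: KC890RL among the wild type and KC872RL and KC873RR among the knockouts on the standard diet, and KC846L among the wild type on the ketogenic diet. None of the 4 knockout libraries on the ketogenic diet expressed them. Xist measured 41.1 CPM in KC890RL, against 4.43 CPM in KC872RL, 5.48 in KC873RR and 8.84 in KC846L. The cause of the higher value was not tested.

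The promoters of the genes, which lie at separate places in the genome, are shown as a description. Their part in the changes of level was not tested. The α globin genes lie on chromosome 11 on the plus strand, Hba-a1 (ENSMUSG00000069919) from 32283511 to 32284465 and Hba-a2 (ENSMUSG00000069917) from 32296489 to 32297298. The β globin genes lie on chromosome 7 on the minus strand, Hbb-bs (ENSMUSG00000052305) from 103826534 to 103828096 and Hbb-bt (ENSMUSG00000073940) from 103812524 to 103813996. Alas2 (ENSMUSG00000025270) lies on chromosome X from 150547375 to 150570638 on the plus strand, and Slc4a1 (ENSMUSG00000006574) on chromosome 11 from 102348824 to 102366203 on the minus strand. These are GENCODE M21 positions on GRCm38. The RefSeq table of promoters (GRCm38.p6) matched 5 of the 6 genes. The 200 bases before the RefSeq start of each gene were read 5′ to 3′ on the gene's strand, from chr11:32283472-32283671 for Hba-a1, chr11:32296292-32296491 for Hba-a2, chr7:103827929-103828128 for Hbb-bs, chr7:103813924-103814123 for Hbb-bt and chrX:150547217-150547416 for Alas2. These windows reach into the GENCODE gene, since GENCODE places the start earlier than RefSeq. Capitals mark 4 motifs on either strand: GATAA, found in sites of GATA factors, CACCC, found in sites of Krüppel-like factors, CCAAT, the letters of the CCAAT box, and TATAA, those of the TATA box.

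Hba-a1: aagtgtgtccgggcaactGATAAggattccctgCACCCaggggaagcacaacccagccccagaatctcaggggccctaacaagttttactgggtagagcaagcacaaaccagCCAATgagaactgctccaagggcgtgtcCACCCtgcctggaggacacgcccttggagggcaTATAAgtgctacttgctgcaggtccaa
Hba-a2: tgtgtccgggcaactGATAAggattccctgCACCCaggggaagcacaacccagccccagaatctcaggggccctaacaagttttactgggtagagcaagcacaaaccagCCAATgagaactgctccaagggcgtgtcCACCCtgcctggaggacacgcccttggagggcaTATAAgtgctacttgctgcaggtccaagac
Hbb-bs: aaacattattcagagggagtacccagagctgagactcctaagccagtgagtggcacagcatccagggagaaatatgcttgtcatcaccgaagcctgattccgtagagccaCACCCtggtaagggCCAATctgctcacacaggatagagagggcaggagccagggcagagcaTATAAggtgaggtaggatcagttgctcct
Hbb-bt: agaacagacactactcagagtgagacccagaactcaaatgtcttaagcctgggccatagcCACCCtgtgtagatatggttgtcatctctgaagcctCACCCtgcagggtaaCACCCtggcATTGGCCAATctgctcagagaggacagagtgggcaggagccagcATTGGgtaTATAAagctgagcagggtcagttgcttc
Alas2: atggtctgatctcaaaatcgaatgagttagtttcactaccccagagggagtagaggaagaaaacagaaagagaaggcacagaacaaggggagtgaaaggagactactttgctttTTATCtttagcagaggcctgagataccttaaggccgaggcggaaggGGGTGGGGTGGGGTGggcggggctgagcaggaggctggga

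Each of the 4 globin windows held a TATAA, at 27 to 30 bases before the start, and at least 1 CCAAT and 1 CACCC. In Hbb-bt the CCAAT at position -75 adjoined a match on the other strand at -80, counted from the first base before the start. GATAA was found once in each α globin window and once, on the minus strand, in that of Alas2, which also held 3 adjoining CACCC matches on the minus strand and neither CCAAT nor TATAA. Over 32851 promoter windows of the same length, GATAA occurred in 18.1%, CACCC in 45.5%, CCAAT in 29.3%, TATAA in 18.5%, and all of these in 0.481%. The matches are a description of letters and were not tested as sites.

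The copies of each chain are so alike that counts could be divided between them in ways the sources used here do not describe. The promoter windows of Hba-a1 and Hba-a2 were identical over 197 of 197 aligned bases, and their main transcripts over 537 of 538. Of all stretches of 50 bases in the Hba-a2 transcript, 86.9% occurred unchanged in that of Hba-a1. The transcripts of Hbb-bs and Hbb-bt were identical over 580 of 626 aligned bases, and 58.3% of the 50-base stretches of Hbb-bt occurred in Hbb-bs. Hba-a2 took 0% to 3.25% of the α globin counts of a library and Hbb-bt 6.85% to 13.4% of the β globin counts. The level of a single copy is therefore uncertain, and sums over the copies are given as well.

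Per kilobase of annotated exon, the order of the genes was the same in wild type and knockout on the standard diet. In wild type on that diet Hba-a1 measured 44.4 ± 3.16, Hbb-bs 36.98 ± 5.38, Hbb-bt 4.60 ± 0.656, Alas2 1.05 ± 0.302, Hba-a2 1.04 ± 0.345 and Slc4a1 0.0163 ± 0.0243 CPM per kb (SD, n = 4). Alas2 and Hba-a2 did not differ beyond their spread. Of the globins outside the 6 genes, the embryonic Hbb-bh1, Hbb-bh2, Hbb-y and Hba-x had 0 counts in all 16 libraries.

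**Figure D1:**
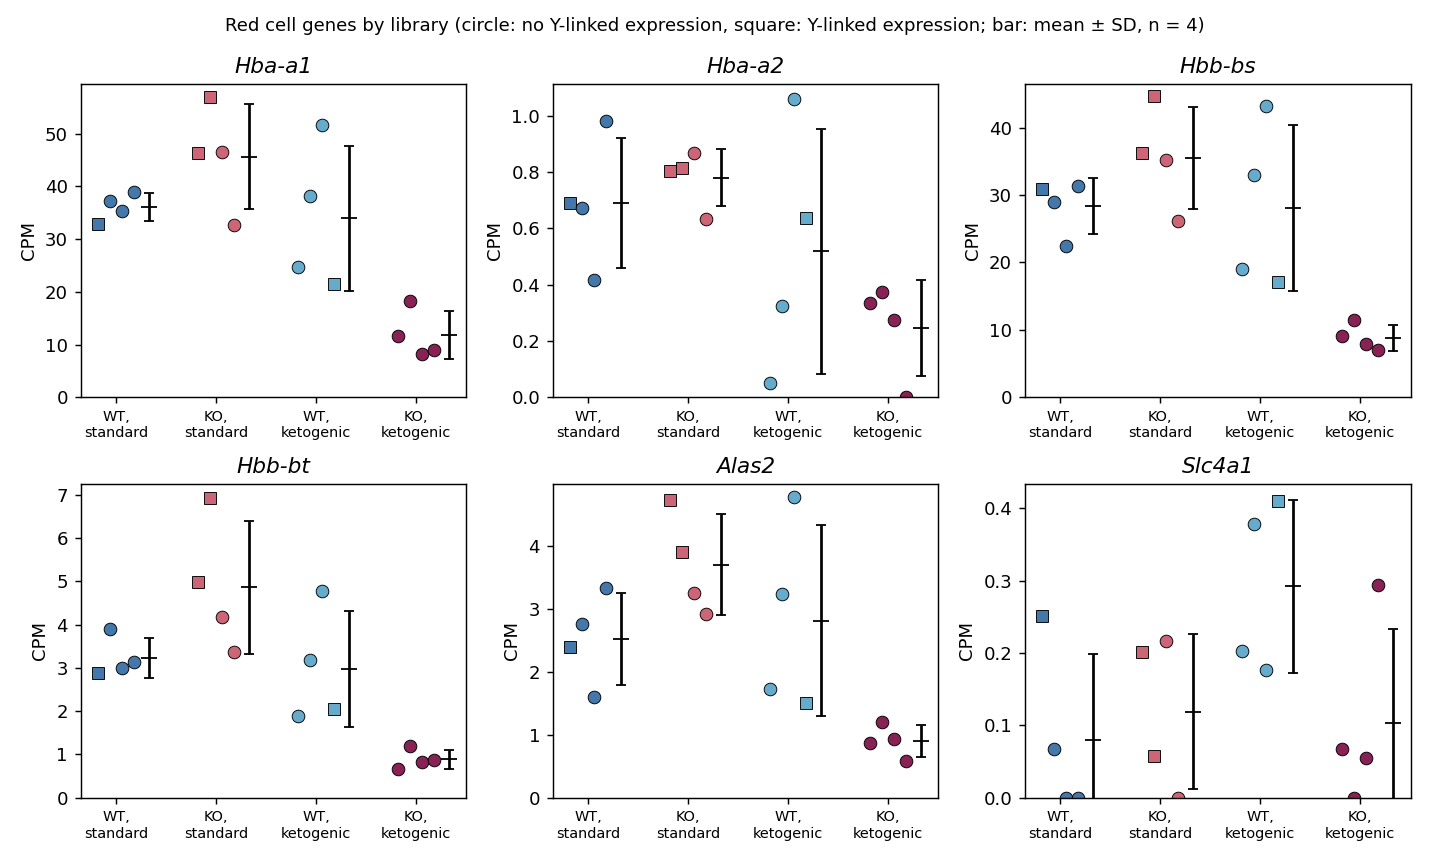
Level in CPM (vertical axis, linear) of each of the 6 genes in the 16 libraries by genotype and diet; squares are libraries with Y-linked expression, circles the others, and bars give mean ± SD (n = 4), drawn down to 0 at most. The knockout libraries on the ketogenic diet lie between 6.99 and 11.4 CPM for Hbb-bs and the other 12 between 17.1 and 44.6 CPM.

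The α globin level was read mainly from Hba-a1. In standard-diet wild types Hba-a1 measured 32.9 CPM in KC890RL, 37.2 in KC894RLL, 35.3 in KC897RR and 38.9 in KC900RLL. In standard-diet knockouts it measured 46.4 CPM in KC872RL, 57.0 in KC873RR, 46.5 in KC888LL and 32.7 in KC893RL. The lowest of these lay just under the lowest wild type library, so the groups overlapped. In ketogenic-diet wild types it measured 24.7 CPM in KC842L, 38.1 in KC843RL, 51.6 in KC844RR and 21.4 in KC846L, a wider range than in any other group. In ketogenic-diet knockouts it measured 11.7 CPM in KC913RR, 18.2 in KC916RRL, 8.23 in KC934R and 8.99 in KC935LL. All 4 lay below every other library. Hba-a2, the second α globin copy, had 0 to 18 counts per library. It measured 0.690 ± 0.230 CPM in standard-diet wild types, 0.780 ± 0.101 CPM in standard-diet knockouts, 0.518 ± 0.434 CPM in ketogenic-diet wild types and 0.246 ± 0.169 CPM in ketogenic-diet knockouts (SD, n = 4). KC935LL had 0 counts of Hba-a2, which allows up to 0.176 CPM at 3 counts, a limit for counting error only.

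As counted here, Hbb-bs is the more abundant β globin copy. In standard-diet wild types it measured 30.9 CPM in KC890RL, 29.0 in KC894RLL, 22.4 in KC897RR and 31.3 in KC900RLL, and in the knockout on that diet 36.2 CPM in KC872RL, 44.6 in KC873RR, 35.2 in KC888LL and 26.1 in KC893RL. In ketogenic-diet wild types it measured 19.0 CPM in KC842L, 32.9 in KC843RL, 43.2 in KC844RR and 17.1 in KC846L. In ketogenic-diet knockouts it measured 9.10 CPM in KC913RR, 11.4 in KC916RRL, 7.90 in KC934R and 6.99 in KC935LL, again below every other library. Hbb-bt, the β globin copy with fewer counts, ranged from 0.669 to 1.20 CPM in that group, from 10 to 16 counts. It ranged from 3.36 to 6.93 CPM in standard-diet knockouts, from 2.89 to 3.90 CPM in standard-diet wild types and from 1.88 to 4.77 CPM in ketogenic-diet wild types.

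Alas2, the heme enzyme of red cell precursors, measured 2.39 CPM in KC890RL, 2.76 in KC894RLL, 1.60 in KC897RR and 3.33 in KC900RLL, the wild type libraries on the standard diet. The knockout libraries on that diet gave 4.73 CPM in KC872RL, 3.90 in KC873RR, 3.25 in KC888LL and 2.92 in KC893RL. Wild type on the ketogenic diet gave 1.73 CPM in KC842L, 3.24 in KC843RL, 4.77 in KC844RR and 1.50 in KC846L. The knockout libraries on the ketogenic diet were again the lowest 4, at 0.870 CPM in KC913RR, 1.20 in KC916RRL, 0.939 in KC934R and 0.587 in KC935LL. The exons of Alas2 share 311 bases with those of Apex2, a DNA repair gene on the opposite strand, and the use of strand is not given in the sources used here. Apex2 measured 7.45 ± 0.853 and 7.34 ± 0.623 CPM in the knockout on the standard and the ketogenic diet (SD, n = 4).

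Slc4a1, the red cell anion exchanger, had too few counts to show a pattern. The 4 libraries of a group together held 5 counts in wild type and 9 in standard-diet knockouts, and 23 in wild type and 7 in ketogenic-diet knockouts. It had 0 counts in 4 of the 16 libraries. Fitted without a filter on low counts, it differed by -0.17 ± 0.94 (SE, log2) between diets in the knockout (edgeR, adjusted p = 1). Between diets in wild type it differed by 1.77 ± 0.90 (SE, log2) in the same fit (edgeR, adjusted p = 0.908).

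The diet in the knockout is the comparison in which these genes were called. At an adjusted p under 0.05, 4 of the 5 tested genes were called lower on the ketogenic diet, against 1.16% of all tested genes in either direction and 0.95% lower. Hba-a1 fell from 45.7 ± 9.95 to 11.8 ± 4.55 CPM (SD, n = 4), by -1.97 ± 0.30 on the log2 scale (SE, edgeR, adjusted p = 0.0139). Hbb-bs fell from 35.6 ± 7.57 to 8.86 ± 1.93 CPM, by -2.02 ± 0.29 (SE, edgeR, adjusted p = 0.0106). For Hbb-bt, from 4.86 ± 1.53 to 0.894 ± 0.221 CPM, the change was -2.45 ± 0.31 (SE, edgeR, adjusted p = 0.00207), the second smallest p of all tested genes. Alas2 fell from 3.70 ± 0.799 to 0.898 ± 0.250 CPM, by -2.05 ± 0.35 (SE, edgeR, adjusted p = 0.0139). Hba-a2, at -1.68 ± 0.63 (SE), did not pass (edgeR, adjusted p = 0.182). With the copies summed, α globin fell by -1.97 ± 0.30 and β globin by -2.06 ± 0.29 (SE, edgeR, adjusted p = 0.0147 and 0.0104). The groups did not overlap in Hba-a1, Hba-a2, Hbb-bs, Hbb-bt and Alas2, which held for 3.72% of tested genes with the ketogenic diet lower. Only 0.275% of tested genes had all 4 knockout libraries on the ketogenic diet below all 12 others, and 4 of the 6 genes did. The median log2 fold change was -2.02 over the 5 tested genes and 0.01 over all tested genes.

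When the 8 libraries of the contrast were left out one at a time, these 4 calls were kept every time, with adjusted p values (edgeR) up to 0.0491, for Alas2 without KC872RL. Without KC888LL, the library whose Kcna1 level stood apart, the log2 fold changes were -1.96 for Hba-a1, -2.02 for Hbb-bs, -2.51 for Hbb-bt and -2.11 for Alas2, with adjusted p values up to 0.00737. Y-linked expression moved with the contrast, being present in 2 of 4 standard-diet and 0 of 4 ketogenic-diet libraries. With Xist as a covariate over all 16 libraries Hbb-bt was called at -2.37 (edgeR, adjusted p = 0.0252), while Hba-a1 at -2.03, Hbb-bs at -2.03 and Alas2 at -2.09 were not (adjusted p = 0.0588 for each), and 7 of all tested genes were called in place of 202. Fitted on the 2 groups alone, Hba-a1 was not called (edgeR, adjusted p = 0.0672). In the 12 libraries that had Xist but no Y-linked expression the log2 fold changes were -1.77 for Hba-a1, -1.81 for Hbb-bs, -2.08 for Hbb-bt and -1.79 for Alas2. None passed (edgeR, adjusted p = 0.245, 0.160, 0.0648 and 0.245), and 3 genes were called in all. The 2 knockout libraries on the standard diet in that fit were KC893RL and KC888LL, the latter with the Kcna1 level that stood apart.

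**Figure D2:**
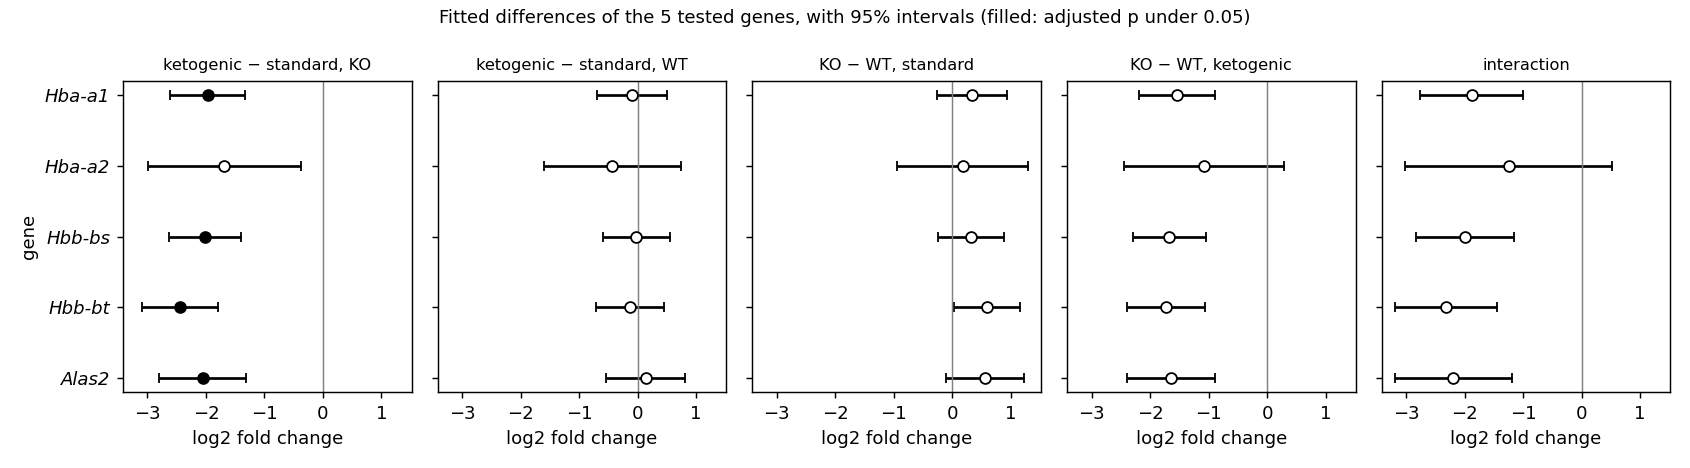
Fitted log2 fold change (horizontal axis) of the 5 tested genes in the 4 pairwise contrasts and the interaction, with 95% intervals; filled points have an adjusted p under 0.05. Filled points are seen for Hba-a1, Hbb-bs, Hbb-bt and Alas2 with the diet in the knockout, and 0 points are filled in the other panels.

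The diet in wild type gave no call among the 5 tested genes, and 2 genes of all those tested, or 0.0114%, were called. The log2 fold changes were -0.09 ± 0.28 for Hba-a1, -0.02 ± 0.26 for Hbb-bs, -0.13 ± 0.28 for Hbb-bt and 0.14 ± 0.32 for Alas2 (SE). Their 95% intervals ran from -0.69 to 0.51, from -0.59 to 0.55, from -0.71 to 0.45 and from -0.53 to 0.81. An equal level was thus not shown, but a fall of the size fitted in the knockout lay outside each of these 4 intervals. Hba-a2, at -0.43 ± 0.56 (SE), had an interval from -1.60 to 0.73. Within ketogenic-diet wild types, KC842L and KC846L held 45.7 and 41.2 CPM of the 4 globins together, and KC843RL and KC844RR 74.5 and 101 CPM.

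The difference of the diet effect between genotypes was tested by the interaction, in which 0 genes, or 0%, were called. The interaction was -1.88 ± 0.41 for Hba-a1, -1.99 ± 0.39 for Hbb-bs, -2.31 ± 0.42 for Hbb-bt and -2.19 ± 0.48 for Alas2 (SE). The unadjusted p values from edgeR were 0.000467, 0.000174, 2.52e-05 and 0.000216, and the adjusted ones were 0.654, 0.654, 0.220 and 0.654. By unadjusted p Hbb-bt, Hbb-bs, Alas2 and Hba-a1 ranked 2, 3, 4 and 6 of 17469 genes, of which 1306 had an unadjusted p under 0.05. Hba-a2 was at -1.25 ± 0.85 (SE, 95% interval -3.02 to 0.52), with an unadjusted p of 0.156 (edgeR) and rank 3595. DESeq2 called the other 4 genes in the interaction, among 7 genes called in all, at adjusted p values of 0.0338 for Hba-a1, 0.00228 for Hbb-bs, 0.00140 for Hbb-bt and 0.0338 for Alas2. With limma-voom 0 of the 5 genes were called, at an adjusted p of 0.674 for each of these 4, and with edgeR and no filter beyond 1 count Hbb-bt was called at 0.00813.

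Knockout against wild type under the ketogenic diet gave values of like direction, and this comparison shares the knockout libraries on the ketogenic diet with the one described first. Hba-a1 differed by -1.54 ± 0.30, Hbb-bs by -1.67 ± 0.29, Hbb-bt by -1.72 ± 0.32, Alas2 by -1.64 ± 0.36 and Hba-a2 by -1.07 ± 0.66 (SE). None passed with edgeR as fitted throughout, at adjusted p values of 0.188, 0.151, 0.141, 0.193 and 0.633, in a contrast in which 0.0172% of tested genes were called. The groups' CPM values were fully separate in Hba-a1, Hbb-bs, Hbb-bt and Alas2, against 1.98% of tested genes with the knockout lower. DESeq2 called the same 4 genes, with adjusted p values from 1.36e-05 to 0.00792, among 45 genes called in all. Other edgeR fits called Hbb-bt with no filter (adjusted p = 0.00532), Hbb-bs with no robust estimation (0.0230), and Hbb-bs and Hbb-bt without KC846L (0.0354 and 0.0399).

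Under the standard diet, knockout against wild type gave no call among the 5 genes, against 0.00572% of all tested genes, a share that stands for Kcna1 alone. Without KC888LL, 1016 genes were called in this contrast, and still 0 of the 5. All 5 fitted values were above 0, at 0.34 ± 0.28 for Hba-a1, 0.17 ± 0.53 for Hba-a2, 0.32 ± 0.26 for Hbb-bs, 0.59 ± 0.27 for Hbb-bt and 0.55 ± 0.32 for Alas2 (SE). The adjusted p values were 0.616, 0.916, 0.617, 0.328 and 0.441 (edgeR). In the libraries without Y-linked expression the values were smaller, at 0.095, 0.12, 0.15, 0.17 and 0.26 in the same order. Leaving out 1 library gave 0.22 to 0.47 for Hba-a1, 0.0034 to 0.39 for Hba-a2 and 0.20 to 0.45 for Hbb-bs. It gave 0.37 to 0.73 for Hbb-bt and 0.39 to 0.72 for Alas2. The knockout libraries highest in globin were KC873RR and KC872RL, with 109 and 88.4 CPM of the 4 globins together, and both expressed Y-linked genes. KC888LL and KC893RL, without Y-linked expression, held 86.8 and 62.9 CPM, against 61.1 to 74.3 CPM in wild type. The other libraries with Y-linked expression were not high, with 67.4 CPM in KC890RL and 41.2 CPM in KC846L, the lowest of its group.

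The proportions of the genes to each other overlapped between all groups. The ratio of α to β globin counts was 1.18 ± 0.171 in standard-diet wild types, 1.15 ± 0.0368 in standard-diet knockouts, 1.12 ± 0.0538 in ketogenic-diet wild types and 1.21 ± 0.208 in ketogenic-diet knockouts (SD, n = 4). Alas2 gave 3.48 to 5.45 counts per 100 globin counts in ketogenic-diet knockouts and 2.62 to 5.35 in the other 12 libraries, so the ranges overlapped almost whole. Hbb-bt took 6.85% to 11.2% of β globin counts in the former and 8.55% to 13.4% in the others. With 134 to 169 β globin counts in each knockout library on the ketogenic diet, 95% Wilson intervals of that share were wide, for example 3.76% to 12.1% in KC913RR.

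**Figure D3:**
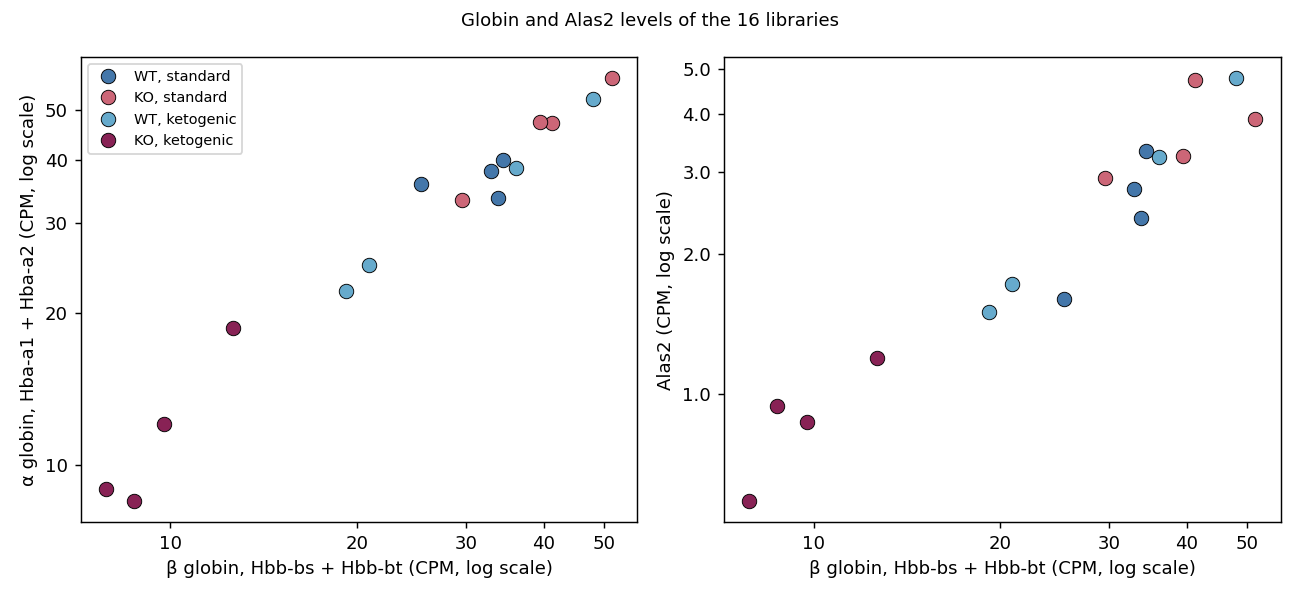
Level of α globin (left) and of Alas2 (right) against β globin in the 16 libraries, in CPM on log axes, coloured by group. The 4 knockout libraries on the ketogenic diet lie apart at the lower left, at 7.87 to 12.6 CPM of β globin.

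Since those 4 libraries lie apart, correlations were computed over the other 12. The log2 levels of α and β globin were related with Pearson's r = 0.963 and Spearman's rho = 0.951 (permutation p = 2e-05 for each, the smallest that these permutations give, adjusted 4e-05 over 2 relations). Without the 2 libraries farthest from the median, r was 0.907. Alas2 and β globin were related with r = 0.918 and rho = 0.923 (permutation p = 0.0001 and 6e-05, adjusted 0.0001 and 6e-05), and with r = 0.853 without the 2 farthest libraries. Within the 8 libraries of the standard diet r was 0.896 and 0.816 (exact permutation p = 0.00357 and 0.0152). The libraries share their total counts in both measures, and the 4 libraries of the knockout on the ketogenic diet are too few for a value of their own.

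The general heme pathway and the other globins gave no call, against 1.16% of all tested genes called in this contrast. At that share a list of a few genes would mostly hold 0 calls. Counts of 0 in these and the following lists therefore say little alone. In the diet contrast of the knockout, 0 of 8 genes of the general heme pathway were called, with a median log2 fold change of -0.03. Alas1, the housekeeping counterpart of Alas2, differed by 0.08 ± 0.06 and Fech, which puts iron into heme, by -0.08 ± 0.07 (SE). Of 9 other globins 4 were tested and 0 called, among them Cygb at 0.18 ± 0.13 and Ngb at 0.16 ± 0.47 (SE), the globins of nervous and other tissues, and Hbq1a at 0.45 ± 0.26 and Hbq1b at 0.39 ± 0.42 (SE).

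Of 8 factors of red cell formation, 4 had few or 0 counts. Gata1 had 2 counts over the 16 libraries, Klf1 43, Nfe2 8 and Gfi1b 0, and none of these was tested. Tal1, Lmo2, Zfpm1 and Epor, which cells of vessels and brain also express, were tested and 0 were called, at mean levels of 2.22, 21.0, 29.6 and 4.52 CPM in standard-diet knockouts and with log2 fold changes of -0.10 ± 0.22, -0.04 ± 0.11, 0.41 ± 0.19 and -0.20 ± 0.23 (SE). The red cell membrane genes Epb42, Rhag, Rhd and Kel had 2 to 37 counts each over all libraries and were not tested. Of the 13 membrane genes 7 were tested and 1 was called. This was Slc2a1, which encodes a glucose transporter of brain capillaries and is in the endothelial list too. It fell from 133 ± 12.04 to 95.1 ± 10.7 CPM (SD, n = 4), by -0.48 ± 0.10 on the log2 scale (SE, edgeR, adjusted p = 0.0222), and was called in 5 of the 8 fits with a library left out, the highest adjusted p being 0.101, without KC872RL.

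Of 19 late red cell gene symbols 17 were found and 12 tested. Of these 1 was called, Fam46c, at -1.91 ± 0.43 (SE, edgeR, adjusted p = 0.0430). Its level in standard-diet knockouts ran from 1.71 to 10.1 CPM, the highest in KC873RR. It was called in 2 of the 8 fits with a library left out, with a log2 fold change of -1.35 without KC873RR and an adjusted p of 0.159 without KC872RL. Ahsp and Tent5c, the latter another symbol of Fam46c, were not found, and Car1 had 0 counts in all libraries. In the heme and iron list 1 of 14 tested genes was called. Trf, the iron carrier transferrin, which oligodendrocytes make in brain, fell from 51.8 ± 6.81 to 29.2 ± 3.15 CPM (SD, n = 4), by -0.82 ± 0.13 (SE, edgeR, adjusted p = 0.0104), and was called in 8 of 8 fits with a library left out and in 9 of 11 other alternatives, the highest adjusted p being 0.162.

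Markers of other blood cells and of vessels were examined in the same contrast, where 1.16% of all tested genes were called. Of the 10 platelet genes 4 were tested and 0 called, with a median of -0.09, and the summed level ran from 11.1 to 23.6 CPM in standard-diet knockouts and from 12.5 to 15.6 CPM on the ketogenic diet. The platelet chemokines Ppbp and Pf4 had 6 and 32 counts over all libraries. Of the 10 neutrophil genes only Csf3r, which microglia also express, was tested, at -1.003 ± 0.33 (SE, edgeR, adjusted p = 0.141), and the list summed to 4.82 to 17.9 CPM and 4.03 to 5.81 CPM. S100a8 and S100a9 had 24 and 48 counts over all libraries. Lcn2, a neutrophil granule gene that other cells also induce, had 150 counts and was not tested, at 1.71 ± 1.81 CPM in standard-diet knockouts and 0.130 ± 0.0971 CPM in ketogenic-diet ones (SD, n = 4). The B and T cell list, with 2 genes tested, 0 called and a median of -0.86, summed to 3.04 to 6.82 CPM and to 1.66 to 3.29 CPM. Ighm, an antibody heavy chain gene, was at -1.05 ± 0.31 and the T cell receptor gene Trac at -0.66 ± 0.47 (SE, edgeR, adjusted p = 0.103 and 0.499), and Cd3d had 0 counts in all libraries. The part of these cells in the globin result was not tested.

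Vessel markers gave a single call, against 1.16% of all tested genes. Of 12 endothelial genes 1 was called, Slc2a1 again, with a median of -0.26 and a summed level of 405 to 490 CPM in standard-diet knockouts and 343 to 407 CPM on the ketogenic diet. Of 9 mural cell genes 0 were called, with a median of -0.16 and sums of 197 to 231 and 178 to 233 CPM. The 8 choroid plexus genes, markers of a vascular tissue next to the hippocampus, summed to 51.4 to 568 CPM and to 33.6 to 56.7 CPM. Their median was -2.43 with 0 called, and their sums in wild type ran from 36.3 to 1098 CPM on the standard diet and from 32.6 to 1063 CPM on the ketogenic diet. The part of choroid plexus in the globin result was not tested. The 12 hippocampal markers all had fitted values above 0 in this contrast, with a median of 0.22, and summed to 4789 to 5533 CPM in standard-diet knockouts and 5465 to 6084 CPM on the ketogenic diet. Of these 1 was called, Spink8, higher by 0.60 ± 0.14 (SE, edgeR, adjusted p = 0.0451), which was called in 2 of the 8 fits with a library left out, with an adjusted p of 0.184 without KC872RL.

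**Figure D4:**
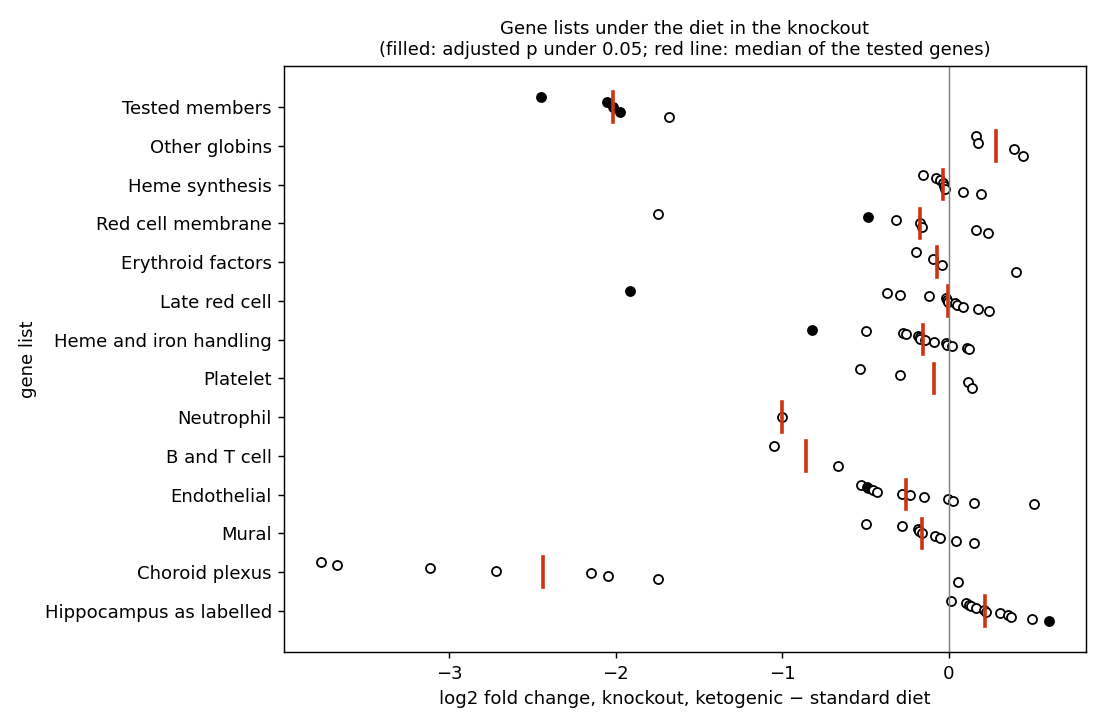
Log2 fold change between diets in the knockout (horizontal axis) of the tested genes of each list (rows); filled points have an adjusted p under 0.05 and red lines mark the median of a row. Hba-a1, Hba-a2, Hbb-bs, Hbb-bt and Alas2 lie between -2.45 and -1.68. The medians of the other globin, blood cell, heme and vessel lists lie between -1.003 and 0.28, while that of the choroid plexus list lies at -2.43.

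The genes whose level ran most alike to the 5 tested genes were taken by Pearson's r over the 16 libraries with the mean log2 CPM of the 5. Each of the 5 correlated with the mean of the other 4 at r = 0.728, for Hba-a2, to 0.973, for Hbb-bs. Among the 10 outside genes with the highest values were Insc (0.857), Arap1 (0.837), Gstt3 (0.836), Golga7 (0.8287), Klf4 (0.819), Sorbs3 (0.812), Cers2 (0.810), Rhog (0.810) and Phldb1 (0.807). None reached the values of Hba-a1, Hbb-bs, Hbb-bt and Alas2, each at least 0.944, while Hba-a2, at 0.728, lay below all 10. The comparison is uneven, since the 5 genes include copies of like sequence. Over the 12 libraries without the knockout on the ketogenic diet, the values of the 10 genes ranged from 0.428 for Golga7 to 0.809 for Arap1. These values describe 16 libraries that share depth and group and carry no test.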

How the data were processed

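The authors deposited 1 table of raw counts per gene with 1 column per animal. Per the submitters' processing notes the genome build was mm10 and DESeq2 was used. The aligner, the counting program, the annotation and the use of strand are not given in the sources used here. Columns carry genotype and diet but no replicate number, so each was assigned to its group only. Whether libraries of a group come from separate litters or days is not stated, and p-values measure the spread between these 16 libraries. No 2 libraries of a group agreed within sampling noise (chi-square per gene at least 3.74).

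Counts were fitted with edgeR 4.0.16 in R 4.3.3 (filterByExpr, TMM, robust quasi-likelihood, 1 coefficient per group, 12 residual degrees of freedom), and p-values were adjusted by Benjamini-Hochberg over all 17469 tested genes of a contrast. CPM used TMM-scaled library sizes, and log2 CPM a prior count of 2. The 95% intervals of fold changes were taken from the same test. Correlations used 100000 permutations, or all of them for 8 libraries (scipy 1.17.1), and sequences were aligned with Biopython 1.88. Alternatives were other scaling, filters and tools (DESeq2 1.42.0, limma-voom 3.58.1), 1 surrogate variable (sva 3.50.0), Xist as a covariate, subsets of libraries and summed copies. The fitting steps were first tested on simulated data.

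All 6 genes were named whatever their values, other list genes where called or in the globin, heme and factor lists, and the 10 genes most alike. Some of these genes are not reported here. The members and lists were chosen with earlier results of these data known.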

Additional observations from a re-analysis of the deposited data

How the results depend on the processing

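With the diet in the knockout, all 5 tested genes stayed lower in every alternative that could be fitted. The 4 calls became 1, Hbb-bt, with Xist as a covariate, which put Hba-a1 at -2.03, Hbb-bs at -2.03 and Alas2 at -2.09 (edgeR, adjusted p = 0.0588 for each). They became 0 with just the libraries that had Xist but no Y-linked expression, at -1.77 for Hba-a1, -1.81 for Hbb-bs, -2.08 for Hbb-bt and -1.79 for Alas2. Fitted on just the 2 groups compared, Hba-a1 lost its call at -1.97 (adjusted p = 0.0672). Those subsets hold fewer libraries; the cause for the covariate was not tested. Leaving out a library gave log2 fold changes from -2.25 to -1.83 for Hba-a1, -2.16 to -1.89 for Hbb-bs, -2.60 to -2.23 for Hbb-bt and -2.20 to -1.89 for Alas2, with 4 calls every time. Of all genes, 202 were called in this contrast, 28 without KC872RL, 46 without KC873RR, 87 without KC913RR, 88 without KC916RRL, 1096 without KC888LL and 3 to 677 in the other alternatives. Between genotypes on the standard diet 1 gene was called, 1016 without KC888LL, 0 without any other library and 0 to 169 otherwise. Between genotypes on the ketogenic diet it was 3, then 1 to 13 and 0 to 45, for the diet in wild type 2, then 0 to 3 and 0 to 12, and for the interaction 0, then 0 and 0 to 7, the 7 with DESeq2.

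Between genotypes on the ketogenic diet, 4 of the genes were called with DESeq2, 1 (Hbb-bt) with no filter, 1 (Hbb-bs) with no robust estimation and 0 to 2 when 1 library was left out, the 2 without KC846L. In the interaction 4 were called with DESeq2, 1 (Hbb-bt) with no filter and 0 whichever of the 16 libraries was left out. Values near 0 changed sign with the diet in wild type: Alas2 was at -0.013 with limma-voom, and Hba-a1 at 0.028 and Hbb-bs at 0.19 in the libraries without Y-linked expression. Leaving out 1 library gave -0.36 to 0.077 for Hba-a1, -0.31 to 0.16 for Hbb-bs, -0.45 to 0.036 for Hbb-bt and -0.24 to 0.35 for Alas2, so no direction is given for them. Correlations over the 12 libraries outside the knockout on the ketogenic diet, a choice made after seeing the data, stayed past the threshold under the 4 alternatives run. Of the 10 genes most alike, 8 were shared without KC888LL and 4 with Spearman's rho.

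Of the other list genes called, over the 11 alternatives other than leaving out a library, Slc2a1 was called in 8, Fam46c in 6, Trf in 9 and Spink8 in 8, with adjusted p values up to 0.554, 0.828, 0.162 and 0.785. No paired analysis was possible because the columns carry no replicate number. Depth limits Hba-a2 and Slc4a1, with at most 18 and 9 counts in a library.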
